A study of Mus musculus with 8 samples.

Results

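The Cyp3a family of the mouse was followed in liver RNA from C57BL/6 mice after a 2-week infusion into the portal vein. The infusion was normal saline in the control group and 4-hydroxyphenylacetic acid, a microbial product of dietary flavonoids known in short as 4-HPAA, in the treated group. Its members were chosen by name as 8 protein-coding genes, Cyp3a11, Cyp3a13, Cyp3a16, Cyp3a25, Cyp3a41a, Cyp3a41b, Cyp3a44 and Cyp3a59, out of 35975 genes to which the deposited transcripts could be assigned. Together they hold 13 transcripts. Each group had 4 mice (replicates 1 to 4), and all 8 mice shared the surgery, the portal catheter and the osmotic pump, so the groups differ in the infused compound and no liver without surgery was included. The sex of the 8 mice is not given in the labels, and the study bought mice of both sexes. Y-linked genes, described below, were expressed in all 8 libraries, the pattern of male mice.

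Cytochrome P450 enzymes of the 3A subfamily sit in the endoplasmic reticulum, carry a heme group and insert 1 oxygen atom into drugs, steroids and bile acids. They take electrons from P450 oxidoreductase, with help from cytochrome b5, and their genes are under the control of the xenobiotic receptors PXR (encoded by Nr1i2) and CAR (encoded by Nr1i3), which pair with RXR, on a background of liver factors such as HNF4A. In adult mouse liver Cyp3a11 is known as the major drug-metabolizing member and Cyp3a13 and Cyp3a25 as further adult enzymes, while Cyp3a16 is known from the perinatal liver and Cyp3a41a, Cyp3a41b and Cyp3a44 from female liver.

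All 8 genes lie on chromosome 5 of GRCm38. Cyp3a16, Cyp3a41b, Cyp3a41a, Cyp3a44, Cyp3a11, Cyp3a25 and Cyp3a59, in this order, form a cluster of 7 genes from 145436309 to 146113287, and Cyp3a13 (137892932 to 137921619) lies 7.51 Mb away. Cyp3a59 is on the plus strand and the other members are on the minus strand. Each main transcript has 13 exons and a coding length, without the stop codon, of 1509 or 1512 bases.

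A stretch that all members share is the loop that holds the heme iron, encoded in exon 12 of each gene. Its 30 bases are shown for every member. The stretch is too short to rank the paralogs by closeness. Cyp3a41a and Cyp3a13 each differ from Cyp3a11 at 3 of these bases, but over the coding sequence they are 95.2% and 76.4% identical to it. Capitals mark bases that differ from Cyp3a11, and positions in the substitutions count from 1 at the first base shown. The window of Cyp3a11 covers 145858805 to 145858834 on chromosome 5.
Cyp3a11: tttgggaatggacccaggaactgccttggc
Cyp3a16: tttgggaatggacccaggaactgcAttggc
Cyp3a41a: tttggAaTtggacccaggaactgcAttggc
Cyp3a41b: tttggAaTtggacccaggaactgcAttggc
Cyp3a44: tttggAaTtggacccaggaactgcAttggc
Cyp3a25: tttggAaatggacccaggaactgcAtAggc
Cyp3a59: tttggAaatggacccaggaactgcctAgAc
Cyp3a13: tttgggaGtggaccAaggaactgcAttggc
The cysteine codon (tgc, positions 22 to 24), whose product is the heme ligand, was the same in all 8. Cyp3a16 differed from Cyp3a11 by C25A only, Cyp3a41a, Cyp3a41b and Cyp3a44 shared G6A, A8T and C25A, Cyp3a25 carried G6A, C25A and T27A, Cyp3a59 carried G6A, T27A and G29A, and Cyp3a13 carried A8G, C15A and C25A.

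Over the whole coding sequence the members fell into 3 sets. Cyp3a11 was 92.8% identical to Cyp3a16, 95.2% to Cyp3a41a and 94.9% to Cyp3a44. Cyp3a25 was 97.5% identical to Cyp3a59, and Cyp3a13 was at most 76.6% identical to any other member. Cyp3a41a and Cyp3a41b were 99.9% identical and differed at 2 coding bases. The first of these is shown with its surroundings in exon 2 (coding bases 90 to 149, counted from the start codon; Cyp3a41a at 145717941 to 145718000 on chromosome 5), since it is one of the few places where a read could tell the genes apart; capitals mark bases that differ from Cyp3a41a.
Cyp3a41a: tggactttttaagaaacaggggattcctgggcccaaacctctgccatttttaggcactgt
Cyp3a41b: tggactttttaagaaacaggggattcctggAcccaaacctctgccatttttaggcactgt
Cyp3a44: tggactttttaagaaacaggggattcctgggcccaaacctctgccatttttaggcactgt
Cyp3a16: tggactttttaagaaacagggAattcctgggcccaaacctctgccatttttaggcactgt
Cyp3a11: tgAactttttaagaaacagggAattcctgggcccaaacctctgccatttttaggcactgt
Cyp3a41b differed here by G120A, Cyp3a16 by G111A and Cyp3a11 by G92A and G111A, and Cyp3a44 was identical to Cyp3a41a. The other difference between the Cyp3a41 genes was G336T. For Cyp3a25 and Cyp3a59, the 60 coding bases with most differences (290 to 349, across exons 4 and 5, from 145994948 to 145998515 for Cyp3a25 with the intron between) held 7, marked in capitals.
Cyp3a25: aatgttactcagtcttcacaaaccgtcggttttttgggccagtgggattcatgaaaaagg
Cyp3a59: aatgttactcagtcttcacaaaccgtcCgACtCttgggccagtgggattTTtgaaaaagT

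This likeness bears on the counts, because kallisto assigns reads by words of 31 bases and divides a read among the transcripts that hold its words. Of the 31-base words of Cyp3a13, 99.7% were found in no other gene, and the share was 84.5% for Cyp3a11, 72.7% for Cyp3a16, 54.1% for Cyp3a25, 51.6% for Cyp3a44 and 50.1% for Cyp3a59. These shares pool all transcripts of a gene. For Cyp3a11 they include a transcript that retains an intron, of 2802 bases against 2344 for the coding one. It held at most 0.501% of the gene's count, and the share for the coding transcript alone was not computed. Cyp3a25 and Cyp3a59 had 870 words in common. Cyp3a41b had 4.1% of its words to itself and Cyp3a41a 0.1%, or 3 of 2030, so that the values of these 2 genes cannot be told apart. In the 250 bases before the RefSeq start of each gene (GRCm38.p6; all 8 matched) the same sets appeared, with 99.6% identity between Cyp3a41a and Cyp3a41b, 94.8% between Cyp3a25 and Cyp3a59 and 71.7% between Cyp3a11 and Cyp3a41a.

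**Figure D1:**
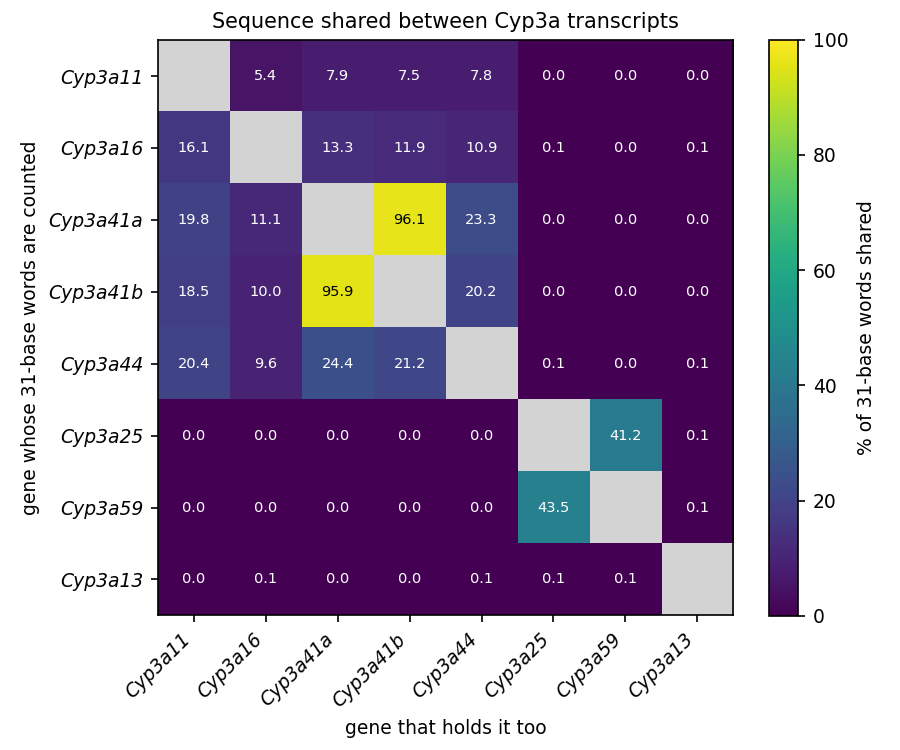
Percent of the 31-base words of each gene's transcripts (rows) that also occur in another member (columns). Cyp3a41a and Cyp3a41b share 96.1% and 95.9% of their words, Cyp3a25 and Cyp3a59 share 41.2% and 43.5%, and Cyp3a13 shares at most 0.1% with any member.

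Of the 8 members, 4 were well expressed and 4 were close to the limit of detection. Levels are compared between genes as TPM (counts per transcript length, scaled to the same sum in each library), computed here from the estimated counts and the annotated transcript lengths. Cyp3a11 was at 2253 ± 305 TPM in normal saline livers and 2651 ± 274 TPM in 4-HPAA livers (SD, n = 4 each), and its mean over the 8 mice ranked 2 among 99 P450 genes, after Cyp2e1, the ethanol-oxidizing P450. Cyp3a25 ranked 8, at 697 ± 150 and 637 ± 19.97 TPM. Cyp3a13 ranked 28, at 128 ± 22.4 and 119 ± 7.45 TPM, and Cyp3a59 ranked 38, at 33.4 ± 12.7 and 32.3 ± 4.24 TPM. In this order the ranges over the 8 mice did not overlap, since the lowest mouse for Cyp3a11 (1983 TPM) lay above the highest for Cyp3a25 (842 TPM), the lowest for Cyp3a25 (498 TPM) above the highest for Cyp3a13 (151 TPM), and the lowest for Cyp3a13 (103 TPM) above the highest for Cyp3a59 (51.3 TPM). Cyp3a41a, Cyp3a16, Cyp3a44 and Cyp3a41b had means of at most 0.115 TPM, and the ranges of Cyp3a41a, Cyp3a16 and Cyp3a44 overlapped.

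**Figure D2:**
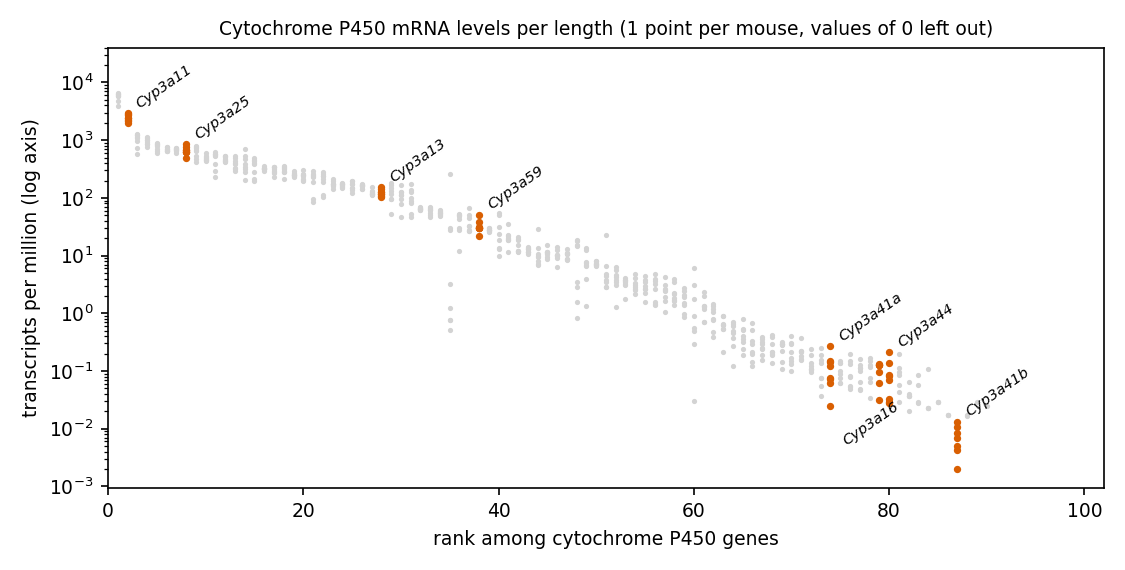
Level of each P450 gene in each mouse, as TPM on a log axis, against the gene's rank by its mean over the 8 mice. Cyp3a members (orange) sit at ranks 2, 8, 28 and 38, and from rank 74 downwards for the 4 others, whose values stay under 0.27 TPM.

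The family made up between 13.5% and 20.98% of the summed P450 level of a liver, 16.0 ± 3.37% in normal saline livers and 17.3 ± 2.59% in 4-HPAA livers (SD, n = 4 each), and the groups overlapped. Replicate 4 of both groups stood apart, with 20.98% in the normal saline mouse and 20.9% in the 4-HPAA mouse, against at most 17.2% in the other mice. The same livers had the lowest summed P450 levels (17727 and 17785 TPM) and the lowest levels of Cyp2e1 (3912 and 4716 TPM, against 5842 to 6663 TPM in the other mice), so each expressed member's fold change is also given without them, a choice made after these values were seen. Cyp3a11 alone supplied between 69.8% and 78.9% of the family's level.

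Total estimated counts lay between 29559978 and 30673398 per library. A gene was tested where no library held fewer than 10 of its counts, which left 12883 genes. Of these, 0 (0%) had an adjusted p under 0.05 for 4-HPAA against normal saline (edgeR's quasi-likelihood test, adjusted after Benjamini and Hochberg). Before adjustment 225 genes (1.75%) had a p under 0.05, and 154 genes (1.2%) had groups that did not overlap. The labels give the strain, tissue, group and number of each mouse and no batch, and the p-values measure the spread between these livers.

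The question for the family was whether delivery of a phenolic microbial acid to the liver was accompanied by a change in these enzymes' mRNA. Of the 8 members, 4 passed the filter on low counts, and 0 of these 4 passed the test, against 0% of all genes. None of the 4 had an unadjusted p under 0.05 (1.75% of all genes) or groups without overlap (1.2%). Values are given from here on as CPM, counts scaled to the size of each library after TMM normalization, a scale on which 1 gene is compared between mice.

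Cyp3a11 (ENSMUSG00000056035, 145854426 to 145879964) was at 2730, 3096, 3187 and 3910 CPM in normal saline replicates 1 to 4 and at 4258, 3418, 3334 and 4337 CPM in 4-HPAA replicates 1 to 4. All 4-HPAA mice lay above 3 of the 4 normal saline mice, and the groups overlapped through normal saline replicate 4, which lay above 4-HPAA replicates 2 and 3. The log2 fold change was 0.25 (standard error 0.14, 95% interval -0.07 to 0.57, edgeR's quasi-likelihood test, adjusted p = 1.00). On the linear scale this was 1.19-fold, with an interval from 0.952 to 1.48. Cyp3a11 did not pass the test. Without normal saline replicate 4 the log2 fold change was 0.35 (unadjusted p = 0.0295, adjusted p = 1.00, edgeR), and without replicate 4 of both groups it was 0.29.

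Cyp3a25 (ENSMUSG00000029630, 145977194 to 146009618) was at 732, 600, 860 and 980 CPM with normal saline and at 764, 740, 717 and 769 CPM with 4-HPAA. The 4-HPAA mice lay close together, inside the range of the normal saline mice. The log2 fold change was -0.08 (standard error 0.14, 95% interval -0.39 to 0.22, edgeR, adjusted p = 1.00). The standard deviation was 164 CPM with normal saline against 23.8 CPM with 4-HPAA, a difference that was not tested. Without normal saline replicate 4 the log2 fold change was 0.03, so its direction rests on that mouse, and without replicate 4 of both groups it was 0.02.

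Cyp3a59 (ENSMUSG00000061292, 146079257 to 146113287), the closest paralog of Cyp3a25, was at 34.8, 26.6, 36.5 and 62.6 CPM with normal saline and at 39.0, 35.2, 34.9 and 47.9 CPM with 4-HPAA. Replicate 4 was the highest mouse of each group, as it was for Cyp3a11, and the groups overlapped. The log2 fold change was -0.03 (standard error 0.23, 95% interval -0.55 to 0.48, edgeR, adjusted p = 1.00) and its direction changed to 0.27 without normal saline replicate 4 and to 0.15 without replicate 4 of both groups. With Cyp3a25 and Cyp3a59 counted as 1 feature, an alternative chosen after the shared sequence was seen, the log2 fold change was -0.08.

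Cyp3a13 (ENSMUSG00000029727), the member outside the cluster and the one with 99.7% of its 31-base words found in no other gene, was at 263, 190, 209 and 260 CPM with normal saline and at 237, 219, 207 and 203 CPM with 4-HPAA. The 4-HPAA mice lay within the range of the normal saline mice, and replicate 4 was the lowest 4-HPAA mouse here. The log2 fold change was -0.09 (standard error 0.12, 95% interval -0.35 to 0.17, edgeR, adjusted p = 1.00), and 0.00069 without replicate 4 of both groups.

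**Figure D3:**
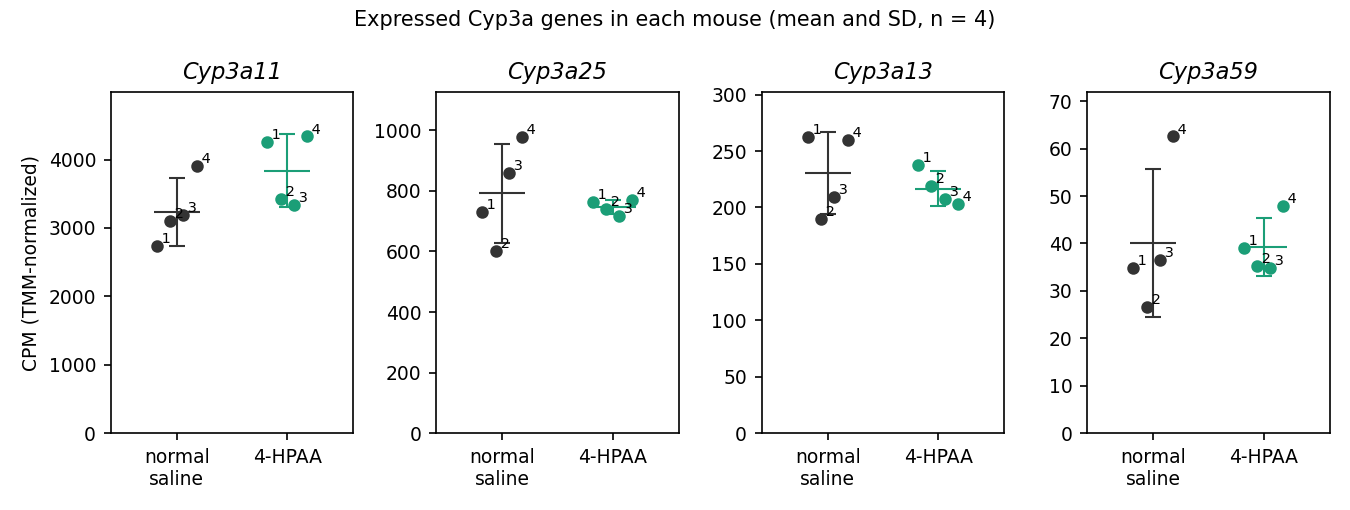
CPM of the 4 expressed members in each mouse (points, numbered by replicate) with the mean and SD of each group (n = 4). The groups overlap in every panel, the 4-HPAA mice of Cyp3a25 lie between 717 and 769 CPM, and replicate 4 is the highest normal saline mouse for Cyp3a11, Cyp3a25 and Cyp3a59.

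The other 4 members did not reach the filter of 10 counts in every library. Cyp3a16 (145436309 to 145469723) had estimated counts of 4.01, 4.0, 1.0 and 4.0 with normal saline and 0.0, 4.0, 2.0 and 3.0 with 4-HPAA. Cyp3a44 (145773983 to 145805874) had 7.54, 1.0, 1.19 and 2.47 with normal saline and 3.0, 1.0, 5.01 and 3.0 with 4-HPAA. With so few reads, no difference was detectable at this depth.

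Cyp3a41a (145694049 to 145720136) had estimated counts of 2.32, 0.93, 2.74 and 4.61 with normal saline and 5.5, 2.81, 5.68 and 10.01 with 4-HPAA, and Cyp3a41b (145558664 to 145584730) had at most 0.5 in any mouse. Merged and rounded, the pair had 2, 1, 3 and 5 counts with normal saline and 7, 3, 6 and 10 with 4-HPAA, still under the filter, and the groups overlapped. Cyp3a41a shares 19.8% of its 31-base words with Cyp3a11, whose coding transcript had 84795 counts or more in every mouse, and the part of misassigned Cyp3a11 reads in these values was not tested. A further entry of the annotation, Cyp3a57, which shares 321 words with Cyp3a25 and 351 with Cyp3a59, was at 0.0328 to 0.289 CPM and is no member.

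The transcripts of a gene were then taken one by one. Shared words were counted between genes and not between transcripts of the same gene, so how well kallisto separates such transcripts was not measured. Cyp3a11 is annotated with a coding transcript and with Cyp3a11-202, which retains an intron and encodes no protein. Cyp3a11-202 had 373, 123, 487 and 331 estimated counts with normal saline and 101, 252, 255 and 113 with 4-HPAA, between 0.0828% and 0.501% of the gene's count. Its log2 fold change was -0.84 (standard error 0.41, 95% interval -1.76 to 0.09, edgeR over 25533 transcripts, adjusted p = 1.00), while that of the coding transcript was 0.26 (standard error 0.15). Normal saline replicate 2 was the mouse that kept the groups from separating. The difference between the transcripts of the gene was not tested.

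Cyp3a25 has a main coding transcript, a transcript marked for nonsense-mediated decay (Cyp3a25-203), a short processed transcript without a reading frame (Cyp3a25-204) and a short coding one with at most 10.48 counts (Cyp3a25-202). Cyp3a25-203 took a large part of the gene's count, 32.9%, 22.6%, 29.0% and 33.4% with normal saline and 27.1%, 28.6%, 26.5% and 29.5% with 4-HPAA. Cyp3a25-203 is 1914 bases long against 2000 for the main coding transcript, and these shares rest on how kallisto divided their reads. Its log2 fold change was -0.18 (standard error 0.22, edgeR, adjusted p = 1.00). Cyp3a25-204 had 617, 181, 826 and 607 estimated counts with normal saline and 266, 505, 278 and 221 with 4-HPAA, with a log2 fold change of -0.77 (standard error 0.40, 95% interval -1.67 to 0.12, edgeR, adjusted p = 1.00). Normal saline replicate 2 was again the lowest normal saline mouse, here also the lowest of all 8, and the groups overlapped.

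Cyp3a59-202, the nonsense-mediated decay transcript of Cyp3a59, took 33.3%, 24.9%, 28.6% and 37.2% of the gene's count with normal saline and 28.3%, 27.1%, 25.9% and 27.6% with 4-HPAA. The normal saline mice had the same order for it as for Cyp3a25-203, with replicate 2 lowest, then replicates 3, 1 and 4, and the 4-HPAA mice did not. The 2 genes share 870 words, whose part in this order was not tested. The log2 fold change of Cyp3a59-202 was -0.27 (standard error 0.33) and that of the coding transcript of Cyp3a59 was 0.08 (standard error 0.20, edgeR, adjusted p = 1.00 for both). Of the 25533 transcripts tested, 0 passed.

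**Figure D4:**
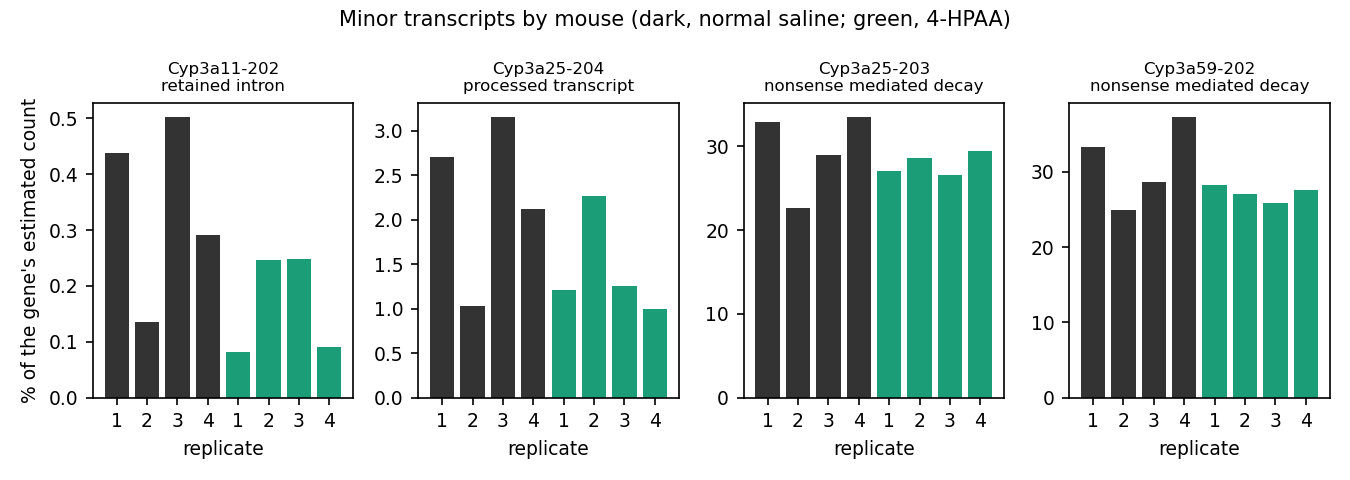
Share of the gene's estimated count held by 4 minor transcripts in each mouse, in percent (bars; dark, normal saline replicates 1 to 4; green, 4-HPAA replicates 1 to 4; each panel has its own scale from 0). Cyp3a25-203 and Cyp3a59-202 hold between 22.6% and 37.2%, Cyp3a11-202 at most 0.501%, and normal saline replicate 2 is the lowest normal saline mouse in all 4 panels.

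**Figure D5:**
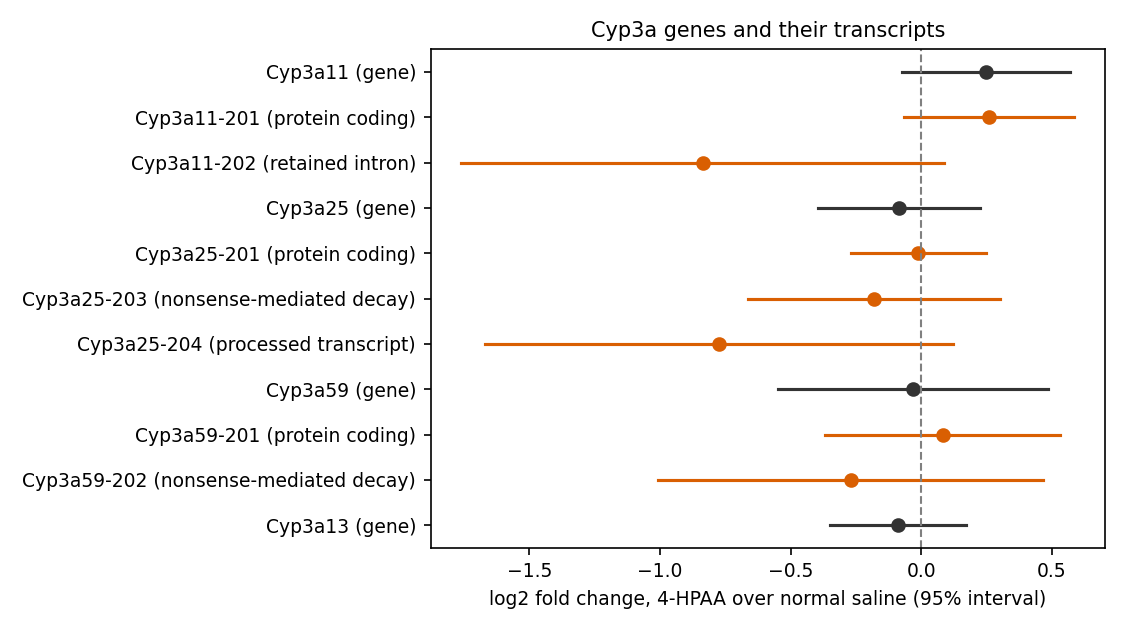
Log2 fold change of 4-HPAA over normal saline with its 95% interval for the 4 expressed genes (dark) and for the tested transcripts of those with several (orange). Every interval includes 0, from Cyp3a11-202 at -0.84 to the coding transcript of Cyp3a11 at 0.26.

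Whether the members varied together was asked over the 8 mice, on log2 CPM, for the 6 pairs of expressed members. Cyp3a25 and Cyp3a59 had a Pearson r of 0.87 (exact permutation test, two-sided, p = 0.0103, adjusted over the 6 pairs 0.0616) and a Spearman rho of 0.90 (p = 0.00456, adjusted 0.0274, exact permutation). Without the 2 mice farthest from the median of Cyp3a25 the r was 0.21, so the size of the r rests on those mice. The rho was not computed without them. The pair shares 870 words of sequence, whose part in the relation was not tested. Within groups, on deviations from the group means, the r was 0.89. Cyp3a11 and Cyp3a59 had an r of 0.64 (exact permutation p = 0.0817, adjusted 0.245) and a rho of 0.83 (exact permutation p = 0.0154, adjusted 0.0461), with an r of 0.72 without the 2 farthest mice and 0.75 within groups. The r was 0.38 for Cyp3a11 with Cyp3a25, -0.01 for Cyp3a11 with Cyp3a13, 0.56 for Cyp3a13 with Cyp3a25 and 0.52 for Cyp3a13 with Cyp3a59, and none of these passed (adjusted exact permutation p of 0.278 or more).

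The 5 genes most like Cyp3a11 over the 8 mice, by Pearson r of log2 CPM among 7380 genes with a mean of at least 10 CPM, were Ces2a (r = 0.94, rho = 0.76), a carboxylesterase, Hsd17b6 (r = 0.93, rho = 0.90), a steroid dehydrogenase, Gsta4 (r = 0.93, rho = 0.76), a glutathione transferase, Fam50a (r = 0.92, rho = 0.93) and Tmub2 (r = 0.91, rho = 0.90). None lies on chromosome 5. These values describe n = 8 livers and are the highest of 7380, of which 12 genes had an r of at least 0.9. How many would reach that r by chance was not computed, and shared control with Cyp3a11 was not tested.

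The listed partners of P450 enzymes, which include electron carriers and heme-binding proteins, gave no call. All 6 were tested, 3 had a log2 fold change above 0 and 3 below, and 0 passed. Por, the oxidoreductase, was at 1058, 856, 793 and 942 CPM with normal saline and 839, 777, 972 and 1027 CPM with 4-HPAA (log2 fold change -0.01, standard error 0.12). The log2 fold change was 0.01 for cytochrome b5 (Cyb5a, standard error 0.09), -0.04 for its mitochondrial form (Cyb5b, standard error 0.12), -0.11 for its reductase (Cyb5r3, standard error 0.11), and 0.01 for both heme-binding membrane proteins Pgrmc1 (standard error 0.10) and Pgrmc2 (standard error 0.08). Of 10 genes of heme synthesis and breakdown, all were tested, 2 were above 0 and 8 below, and 0 passed, with a median log2 fold change of -0.04 and values from -0.22 (Uros) to 0.07 (Fech). The median over all genes tested was 0.00071, with 6489 above 0 and 6394 below.

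Of 19 listed regulators of the family, 18 were tested, 10 were above 0 and 8 below, and 0 passed (median 0.02). Nr1i2 was at 111, 90.2, 95.4 and 125 CPM with normal saline and at 122, 95.4, 91.1 and 133 CPM with 4-HPAA (log2 fold change 0.06, standard error 0.15). The 3 livers with most Nr1i2 were those with most Cyp3a11, 4-HPAA replicates 4 and 1 and normal saline replicate 4, an observation made after the values were seen. The next liver by Nr1i2, normal saline replicate 1 (111 CPM), had the least Cyp3a11 (2730 CPM). Nr1i3 was at 385, 360, 394 and 358 CPM with normal saline and 448, 382, 345 and 226 CPM with 4-HPAA. Its log2 fold change was -0.10 (standard error 0.17). The lowest Nr1i3 value was in the liver with most Cyp3a11, 4-HPAA replicate 4. The highest was in 4-HPAA replicate 1, also among the 3 livers with most Cyp3a11. The relation of either receptor gene to Cyp3a11 was not tested. Rxra had a log2 fold change of -0.02 (standard error 0.08) and Hnf4a of 0.03 (standard error 0.10). The highest value in the list was 0.63 for the pioneer factor gene Foxa2, which had an unadjusted p of 0.0432 (edgeR).

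Other genes that PXR and CAR are known to induce gave no call. Of 31 listed, 28 were tested, 13 were above 0 and 15 below, 2 had an unadjusted p under 0.05 (1.75% of all genes) and 0 passed, with a median of -0.03. The values ran from -3.01 for Cyp2a4, a steroid hydroxylase that is higher in females, to 0.29 for Cyp2c55. Cyp2a4 was at 28.2, 0.823, 0.558 and 275 CPM with normal saline and at 3.56, 0.80, 1.29 and 32.3 CPM with 4-HPAA, highest in normal saline replicate 4. Among the other P450 genes 57 of 91 were tested, with 28 above 0, 29 below and 0 that passed (median -0.00090), and among the Cyp2c genes 13 of 16 listed were tested, with 6 above and 7 below, from -1.36 (Cyp2c40) to 0.29 (Cyp2c55).

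The sex pattern of these livers matters for the family, because Cyp3a41a, Cyp3a41b and Cyp3a44 are known as female genes. Y-linked genes gave the pattern of male mice in every library. All 4 Y-linked genes listed were expressed in every library, with Ddx3y at 72.1 to 89.5 CPM, Eif2s3y at 43.7 to 52.0 CPM, Kdm5d at 16.3 to 24.6 CPM and Uty at 14.2 to 16.9 CPM, and their log2 fold changes lay between -0.14 (Kdm5d) and 0.08 (Ddx3y). Of 19 female-biased liver genes 12 were tested, 1 was above 0 (Adgrf1, 0.20) and 11 below, with a median of -0.71, 2 with an unadjusted p under 0.05 (1.75% of all genes) and 0 that passed. Their summed level was 184 to 567 CPM with normal saline and 189 to 251 CPM with 4-HPAA. Of 22 male-biased genes 21 were tested, 16 were above 0 and 5 below (median 0.08, from -0.17 for Serpina1e to 0.48 for Mup7), and 0 passed. The part of these genes' variation in the Cyp3a values was not tested.

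Genes marking the liver's zones gave no call. Of 14 pericentral genes, the zone where Cyp3a11 is known to be strongest, 7 were above 0 and 7 below (median -0.01, from -0.26 for Lgr5 to 0.34 for Axin2), and of 13 periportal genes 6 were above and 7 below (median -0.01, from -0.33 for G6pc to 0.05 for Cps1). Replicate 4 of both groups stood apart for some zone genes, picked after the values were seen. Pericentral Glul was at 415 (normal saline) and 512 CPM (4-HPAA) there, against 809 to 965 CPM in the other mice. Periportal Ass1 was at 4053 and 3474 CPM, against 2380 to 2814 CPM. Periportal Hal did not follow, at 415 and 288 CPM. The part of zonal variation in the Cyp3a values was not tested. Of 17 acute phase genes 3 were above 0 and 14 below (median -0.04, from -0.76 for Lcn2 to 0.37 for Socs3). Along the chromosome, 110 other genes lie within 500 kb of a member, 46 were tested, 17 were above 0 and 29 below, and 0 passed, with values from -0.34 (Gm20605) to 0.34 (Ppp1r35).

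Bulk liver RNA cannot tell fewer cells of a type from less RNA per cell. All 10 hepatocyte markers were expressed, at a summed 125005 to 149214 CPM with normal saline and 117267 to 148039 CPM with 4-HPAA, with log2 fold changes from -0.15 (Trf) to 0.11 (Apob). The summed level of 8 Kupffer cell markers was 88.3 to 291 and 79.3 to 240 CPM (from -1.10 for Marco to 0.08 for Timd4), of 8 endothelial markers 140 to 202 and 130 to 235 CPM (from 0.03 for Stab2 to 0.14 for Cdh5), of 8 stellate cell markers 103 to 208 and 117 to 196 CPM (from -0.17 for Col1a1 to 0.34 for Lrat), of 6 cholangiocyte markers, 4 of them tested, 23.5 to 45.6 and 24.1 to 38.0 CPM (from -0.15 for Epcam to 0.43 for Sox9), and of 9 intestinal and pancreatic markers, 4 of them tested, 81.9 to 104 and 76.4 to 102.5 CPM (from -0.13 for Lgals4 to 0.34 for Cela2a). The 4 erythroid markers summed to 151 to 2437 and 66.2 to 637 CPM. Their log2 fold changes were -1.92 (Hba-a1), -1.89 (Hba-a2), -1.75 (Hbb-bs) and -2.11 (Hbb-bt). These markers were highest in normal saline replicate 2, the mouse with the lowest Cyp3a25. Among the 4-HPAA mice they were highest in replicate 4, which had the highest Cyp3a25 of that group (769 CPM). None of these lists had a member that passed the test, and their part in the Cyp3a values was not tested.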

How the data were processed

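Liver RNA of 8 mice was sequenced by the submitters from directional mRNA libraries. The authors ran FastQC 0.11.9, joined the flow cells and ran kallisto against GRCm38.p6 transcripts. They deposited the estimated count per transcript and mouse, without normalization or pooling of mice. The study names NCBI annotations, while the transcripts carry Ensembl identifiers. Here, 116728 of 119414 transcripts were matched to 35975 genes of GENCODE M21 (GRCm38), 2686 were not matched (0.703% to 1.06% of a library), and counts were summed per gene and rounded. 0 columns had no sample.

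Genes whose lowest library held 10 counts or more entered edgeR 4.0.16 (quasi-likelihood test, TMM, Benjamini-Hochberg, threshold 0.05) in R 4.3.3. Standard errors are the log2 fold change over the root of F, and intervals use the t distribution. DESeq2 1.42.0 and limma-voom (limma 3.58.1), other scalings and filters, single transcripts, merged paralogs, a replicate block and each library left out were the alternatives. The steps were tested on simulated data. TPM used annotated transcript lengths. Correlations used log2 CPM with a prior count of 2 and exact permutation in Python 3.11.15.

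Members and gene lists were chosen with earlier results of these data known. Genes named by rule are the members, the extremes of each list, the P450 partners, Y-linked and erythroid genes, Nr1i2, Nr1i3, Rxra, Hnf4a, the 5 genes most like Cyp3a11 and the extremes within 500 kb. Glul, Ass1 and Hal were named after their values were seen.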

Additional observations from a re-analysis of the deposited data

Results flagged for a closer look

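In 126 groups of 4 mice, over the family's values and the genes named by rule, 1 mouse lay far from the other 3 in 17. Glul, Ass1 and Hal were not among the genes examined. Chance gives about 1 in 20 for independent groups that were not selected. That rate is no yardstick here, because many genes were named for extreme fold changes in these data. The 4 erythroid genes were also flagged in the same mice. None of the 17 was a Cyp3a gene, transcript share or family total. The measure is the gap to the nearest mouse over the range of the group. With normal saline, replicate 2 was far above the others for Hba-a1 (0.936), Hba-a2 (0.927), Hbb-bs (0.908), Hbb-bt (0.948) and Marco (0.846). Replicate 4 was above them for Cyp2a4 (0.899) and Cela2a (0.849) and below them for G6pc (0.926), replicate 1 was above them for Lcn2 (0.940), and replicate 3 was below them for Cyb5r3 (0.904). With 4-HPAA, replicate 4 was above the others for Hba-a1 (0.963), Hba-a2 (0.985), Hbb-bs (0.950), Hbb-bt (0.962), Cyp2a4 (0.912) and Serpina1e (0.890), and replicate 3 was below them for Cyb5r3 (0.864).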

How the results depend on the processing

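No Cyp3a member passed under any of the alternatives run. Cyp3a11 kept its direction under all of them, from 0.24 to 0.26 in log2 fold change over scalings, filters, tools, single transcripts and merged paralogs and from 0.18 to 0.35 with libraries left out. Merging could hardly move Cyp3a11, because each paralog merged with it had at most 10.01 estimated counts in a mouse, against 84795 or more. Cyp3a13 lay between -0.17 and 0.00069, and Cyp3a25 between -0.20 and 0.03, with libraries left out. Cyp3a25 changed direction without normal saline replicate 4 (0.033) and without replicate 4 of both groups (0.018). Cyp3a59 changed direction in 7 of 18 alternatives, with limma-voom (0.029), single transcripts (0.083), the replicate block (0.026), and without normal saline replicate 4 (0.27), 4-HPAA replicate 2 (0.017), 4-HPAA replicate 3 (0.021) or replicate 4 of both groups (0.15), and ranged from -0.19 to 0.27 with libraries left out. DESeq2 called 2 genes, Zfp36l2 and Ggnbp1, where edgeR called 0, and leaving out libraries gave 0 to 1 (CAAA01147332.1, without 4-HPAA replicate 1). These genes were named after their values were seen, and the cause of these changes was not tested. The deviations of same-numbered mice from their group means had correlations across genes of 0.04, 0.17, 0.27 and 0.48 (mean 0.24, against -0.08 for other pairs). The labels give no shared batch and a pairing was to be taken only with all 4 above 0.1, which replicate 1 was not, so the block stayed an alternative. Of the normal saline libraries, 2 of 4 correlated best with their own number. With the replicate block, 0 genes passed, 336 were under 0.05 before adjustment, and Cyp3a11 was at 0.25 (unadjusted p = 0.0695, adjusted p = 1.00, edgeR), higher with 4-HPAA in each of the 4 same-numbered pairs. Cyp3a41a and Cyp3a41b merged stayed under the filter and gave no value. With looser filters, Cyp3a16 was at -0.49, Cyp3a41a at 1.18 and Cyp3a44 at 0.03 (adjusted p = 1.00 for each, edgeR), on 22, 36 and 24 summed counts. The depth limits the members under the filter.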
